A study of Mus musculus with 6 samples.

Results

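Rab GTPases are small guanine nucleotide-binding proteins that mark the membranes of the cell and direct traffic between them. Their genes were taken from the deposited gene table as known genes whose symbol is Rab followed by a number and optional letters, with a count of at least 60 summed over the 6 libraries. This gave 52 genes of the 24459 in the table, and 176 of the 75457 rows of the isoform table carried their symbols. Rab20, with a summed count of 63, Rab7b, with 137, and Rab37, with 143, lay just inside the minimum. The 7 Rab symbols below it were Rab42, with 31 counts, Rab39, with 14, Rab38, with 9, Rab19, with 5, and Rab17, Rab25 and Rab44, for which no count was listed.

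The tissue was perihematomal brain, taken from around the clot of mice on day 5 after an intracerebral haemorrhage (ICH). All animals carried the bleed, and the labels give WT under cell type, with no strain, sex or age. Of the 6 libraries, 3 came from mice given TEPP-46, a small-molecule activator of pyruvate kinase M2, and 3 from mice given vehicle, for 5 days in succession after the bleed. The vehicle libraries are headed C1, C2 and C4 and the TEPP-46 libraries T1, T2 and T3, a match that rests on the letter alone. The labels do not say that the samples of a group were separate animals, so that p-values measure the spread between these libraries, which may be technical.

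A Rab protein works as a switch. An exchange factor loads it with GTP on its membrane, where it binds effectors that tether, move or fuse vesicles, and a GTPase-activating protein returns it to the GDP form, which GDI extracts from the membrane. Newly made Rab proteins are presented by an escort protein to Rab geranylgeranyl transferase, which adds the lipid anchor. In neurons the family is best known for the synaptic vesicle cycle, in which the RAB3 proteins take part, and in phagocytic cells for the maturation of phagosomes through RAB5 and RAB7.

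Values are given as CPM, each gene's count scaled to a common library total, without division by transcript length. They are therefore set side by side between libraries and not between genes. Library totals were between 5286426 and 6025064 counts. The libraries differed in the makeup of the tissue. The summed CPM of 12 microglia and macrophage markers, none of which was at 0 in any library, was 1330 in C1, 3405 in C2, 853 in C4, 1337 in T1, 2018 in T2 and 2285 in T3. The 9 oligodendrocyte markers summed to 5383 CPM in C4 and to between 13227 and 15412 in the other libraries, and 8 choroid plexus and ependyma markers summed to 228 in C2 and 186 in C4 against 2265 to 4999 elsewhere, with Folr1 at 0 in C4. The 10 neuron markers, the check of the labelled tissue, were at 0 in no library and summed to between 5917 and 7874 CPM. In bulk tissue, fewer cells of a type and less RNA per cell cannot be told apart.

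The family is defined by a conserved fold and contains close relatives. The nearest relative of a member within the family matched it at 50.5% to 78.4% of the positions of their aligned coding sequences, gaps included. The median was 67.8%, and no pair reached 80% on this measure. Rab6a and Rab6b were the closest pair. Rab6a also holds a pair of alternative coding exons, known as a duplication within the gene, and they are shown here because each library's Rab6a counts could be split between them. On GRCm38 and the plus strand the upstream exon, used by Rab6a-202 and Rab6a-203, is at chr7:100629666-100629771 and the downstream exon, used by Rab6a-201, at chr7:100629838-100629943. Both are 106 bases long and lie 66 bases apart. They match at 76 bases (71.7%) and differ at 30, which are set in capitals.
upstream exon: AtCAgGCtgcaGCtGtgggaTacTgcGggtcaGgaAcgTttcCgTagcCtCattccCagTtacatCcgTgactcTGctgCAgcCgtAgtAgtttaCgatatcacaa
downstream exon: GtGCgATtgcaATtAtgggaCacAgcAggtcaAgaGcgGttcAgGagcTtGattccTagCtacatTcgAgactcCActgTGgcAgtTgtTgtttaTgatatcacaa

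The comparison of TEPP-46 with vehicle asks which transcripts of the tissue around the clot differ when pyruvate kinase M2 is activated. Rab24, which is linked to autophagy and is unusual among Rab proteins in its low GTPase activity, had the largest difference of the family, with 3.80-fold lower fitted counts in TEPP-46. In 41 members, among them Rab7, Rab14 and Rab11a, the log2 fold change was under 0.3 in size (78.8%, against 71.3% of all genes). All 52 members passed the low-count filter. None was called at an adjusted p under 0.05 by the quasi-likelihood F test of edgeR (Benjamini-Hochberg), nor was any of the 14441 genes tested (0% called), and the smallest adjusted p of a member was 0.383. At an unadjusted edgeR p under 0.05, 4 members were lower (7.69%) and 0 were higher, where 4.05% of all genes tested were lower and 1.88% higher. DESeq2 called 1 member, Rab24, among 76 genes lower in TEPP-46 (0.526% of those tested) and 3 higher (0.0208%), and had 4 members lower and 0 higher at an unadjusted p under 0.05 (3.93% and 1.17% of all genes). The fold changes of 31 members were below 0 (59.6%, against 48.9% of all genes), with a median of -0.04 on the log2 scale against 0.01 for all genes.

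**Figure D1:**
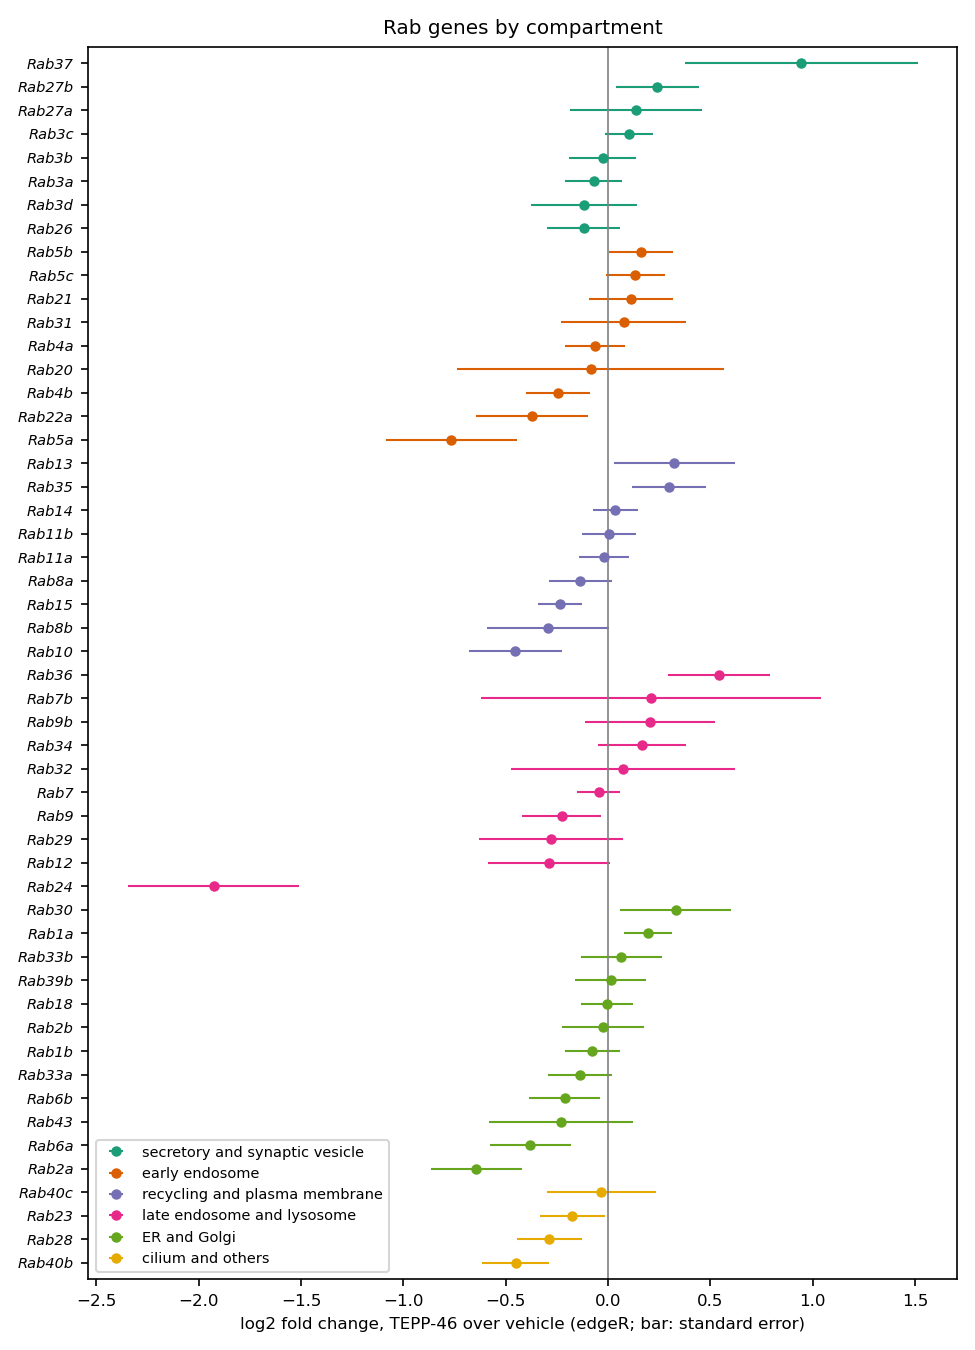
Log2 fold change of TEPP-46 over vehicle for the 52 Rab genes, grouped by compartment (colours); points are edgeR estimates and bars their standard errors. Rab24 lies alone at -1.93, and most other members lie close to 0.

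The libraries of the groups did not overlap in 7 members. In 2 of them, Rab36 and Rab1a, all TEPP-46 libraries were above all vehicle libraries (3.85%, against 5.67% of all genes). In the other 5, Rab24, Rab2a, Rab40b, Rab15 and Rab28, they were all below (9.62%, against 5.76%). The vehicle library C4 held the highest value of 16 of the 52 members, against 24.2% of all genes, and T1 that of 11 of 52, against 18.4%. C4 also held the lowest value of 12 of the 52 members, against 25.3% of all genes. In 10 members the highest library was more than 1.3 times the next one, and it was C4 in 6 of them, C2 in 3 and T1 in 1. The 6 were Rab24, Rab12, Rab5a, Rab2a, Rab10 and Rab22a. The share of all genes above that ratio is not given here, so nothing about the family is read from these counts. C4 was also the library with the lowest sums of the microglia, oligodendrocyte and choroid plexus markers given above. It had the highest sum of the neuron markers, at 7874 CPM. The part of this makeup in these 6 genes was not tested.

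The RAB proteins of late endosomes and lysosomes made up a group of 10 members, of which 5 had fold changes above 0 and 5 below. Rab24 (ENSMUSG00000034789), on the minus strand at chr13:55319743-55321946, was at 36.5 CPM (C1), 21.1 (C2) and 70.9 (C4) after vehicle, and at 8.63 (T1), 13.5 (T2) and 11.9 (T3) after TEPP-46. Every vehicle library was above every TEPP-46 library, C4 was highest and C2 the closest to the TEPP-46 range. The group values were 42.8 ± 25.5 CPM with vehicle against 11.3 ± 2.49 with TEPP-46 (SD, n = 3 each), on raw counts of 195, 120 and 375 against 52, 76 and 63. The edgeR log2 fold change was -1.93 (SE 0.42), unadjusted p = 0.00149 and adjusted p = 0.383. With DESeq2 it was -1.94 with an adjusted p of 0.000719, and with edgeR without C2 it was -2.25 with an adjusted p of 0.0354. Without C4 the edgeR log2 fold change was -1.35, with an unadjusted edgeR p of 0.00140 and an adjusted p of 1.00. In the authors' deposited table Rab24 had a p of 5.43e-07 and a log2 fold change of -1.14, and at that table's p under 0.01 with a fold of at least 1.5 it was the only one of the 52 members on the lower side, where 1.29% of its genes are.

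Rab24 shares 1258 exon bases with Prelid1, a gene of mitochondrial lipid transfer on the opposite strand. Prelid1 was between 105 and 122 CPM in all libraries, with an edgeR log2 fold change of 0.02. Whether the counting used strand is not given in the sources used here, and without it, reads from the shared bases cannot be told apart. In all, 15 members share exon bases with a gene on the opposite strand and 6 with a gene on the same strand.

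Rab36, a RAB of the Golgi and late endosomes that binds RILP family proteins, had the highest fold change of this group. It was at 15.0 CPM (C1), 15.3 (C2) and 11.9 (C4) after vehicle, and at 28.0 (T1), 17.4 (T2) and 16.4 (T3) after TEPP-46. All TEPP-46 libraries were higher than all vehicle libraries, but T1 stood apart and T3 lay near C2. By edgeR the log2 fold change was 0.54 (SE 0.25), at an adjusted p of 0.854, and it was 0.26 without T1. Rab7, the late endosomal RAB that recruits the machinery of lysosome fusion, was at 375, 331 and 364 CPM in the vehicle libraries (C1, C2, C4) and at 367, 336 and 342 in the TEPP-46 libraries (T1, T2, T3). Its groups overlapped throughout, with a log2 fold change of -0.05 and an SE of 0.11.

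Rab7b and Rab32 varied more between libraries of 1 group than between groups. RAB7B works between endosomes and the trans-Golgi network in myeloid cells, and RAB32 in lysosome-related organelles and in the defence of phagocytes against bacteria. Rab7b was at 1.12 CPM (C1), 9.12 (C2) and 0.946 (C4) after vehicle, and at 1.83 (T1), 6.05 (T2) and 5.46 (T3) after TEPP-46. Rab32 had 2.81, 9.12 and 2.08 CPM in the vehicle libraries and 3.32, 4.98 and 6.78 in the TEPP-46 libraries. In both genes C2 was highest and C4 lowest, and the groups overlapped. The libraries that were high in these genes were also high in the microglia and macrophage markers given above (3405 CPM in C2, 853 in C4), and the part of that in these values was not tested. Their log2 fold changes were 0.21 with SE 0.83 and 0.07 with SE 0.55, and without C2 they were 2.07 and 1.02.

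Rab12, which acts from recycling endosomes to lysosomes and is a substrate of the kinase LRRK2, had 24.0 CPM in C4 and between 11.6 and 13.6 in the other libraries. Rab9, of transport from late endosomes to the trans-Golgi network, had 31.3, 37.4 and 24.2 CPM in vehicle and 26.2, 24.9 and 29.0 in TEPP-46. Rab29, a Golgi RAB that activates LRRK2, had between 2.67 and 6.60 CPM. Rab34 had between 11.9 and 16.8 CPM and Rab9b between 4.73 and 10.3. None of these 5 had a group separated from the other, and their log2 fold changes ran from -0.29 for Rab12 to 0.20 for Rab9b.

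**Figure D2:**
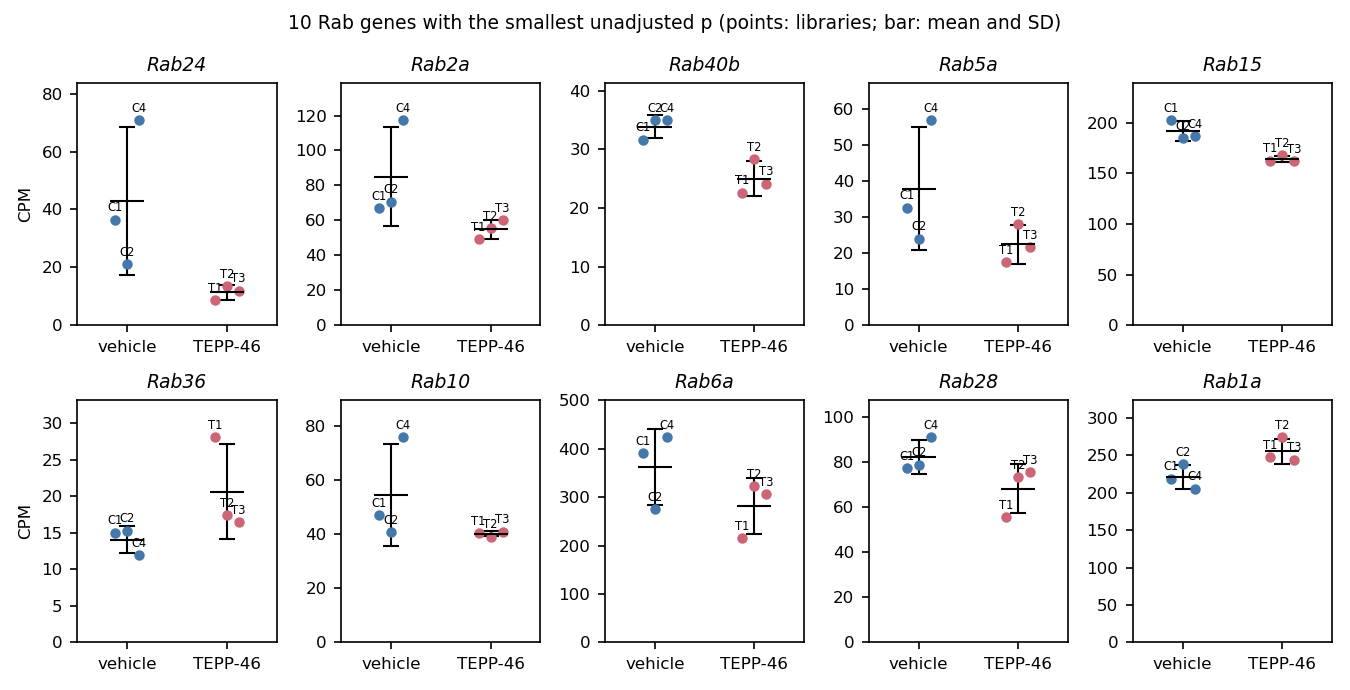
CPM of the 10 Rab genes with the smallest unadjusted edgeR p, by library (points, labelled by column), with the mean and SD of each group (bars, n = 3); each axis starts at 0. C4 is the highest library in Rab24, Rab2a, Rab5a, Rab10, Rab6a, Rab28 and, barely above C2, Rab40b, and T1 is far above the others in Rab36.

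Of the 12 members of the endoplasmic reticulum and the Golgi, 8 had fold changes below 0 and 4 above. Rab2a, which acts in traffic between the endoplasmic reticulum and Golgi and in the fusion of autophagosomes and dense-core vesicle biogenesis, was at 66.9 CPM (C1), 70.7 (C2) and 117 (C4) after vehicle, and at 49.1 (T1), 55.5 (T2) and 60.1 (T3) after TEPP-46. The groups did not overlap, with C1 and T3 the closest libraries and C4 far above the rest. The values were 85.0 ± 28.2 CPM with vehicle against 54.9 ± 5.51 with TEPP-46 (SD, n = 3 each), and the edgeR log2 fold change was -0.64 (SE 0.22), unadjusted p = 0.0171 and adjusted p = 0.687. Without C4 it was -0.34. The authors' deposited table gives a p of 0.00710 and a log2 fold change of -0.51 for Rab2a. Rab2b, its paralog, had 29.0, 25.4 and 21.8 CPM in vehicle and 26.9, 28.8 and 19.8 in TEPP-46, a log2 fold change of -0.02 with SE 0.20.

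Rab6a, the Golgi RAB of retrograde transport and of secretory carriers, was at 390, 275 and 424 CPM in the vehicle libraries (C1, C2, C4) and at 215, 323 and 306 in the TEPP-46 libraries (T1, T2, T3). T1 was lowest, but C2 lay below T2 and T3, so that the groups overlapped. Its log2 fold change in edgeR was -0.38 (SE 0.20), at an adjusted p of 0.897, and it was -0.22 without T1 and -0.25 without C4. Rab6b, its form in neurons, had 222, 135 and 180 CPM against 170, 153 and 143, with an overlap of the groups and a log2 fold change of -0.21. Rab6a shares 708 exon bases with the opposite-strand gene Mrpl48, which was at 110 ± 14.5 CPM with vehicle against 100 ± 6.90 with TEPP-46 (SD, n = 3 each).

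Rab1a, which controls traffic from the endoplasmic reticulum to the Golgi, was the other member with all TEPP-46 libraries above all vehicle libraries. It was at 219, 238 and 206 CPM in the vehicle libraries (C1, C2, C4) and at 247, 274 and 244 in the TEPP-46 libraries (T1, T2, T3). The separation between C2 and T3 was small. Its log2 fold change in edgeR was 0.20 (SE 0.12), at an adjusted p of 0.936. Its paralog Rab1b had between 74.3 and 91.4 CPM, with a log2 fold change of -0.08.

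Rab18, of lipid droplets and the endoplasmic reticulum, was among the most even members in vehicle, with 219 ± 1.17 CPM, against 220 ± 32.4 in TEPP-46 (SD, n = 3 each). Rab39b, whose human counterpart is a gene of X-linked intellectual disability, had between 19.0 and 23.6 CPM. Rab33a, a RAB of neurites, had 44.9, 39.3 and 52.6 CPM against 44.3, 40.6 and 40.7, and Rab33b, of the Golgi and autophagy, between 18.0 and 28.3 CPM. Rab30 had between 6.18 and 12.5 CPM with a log2 fold change of 0.33 and an SE of 0.27, and Rab43 between 4.15 and 11.2 CPM. The groups of these 6 members overlapped.

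RAB5 proteins govern the early endosome, where they drive the fusion of incoming vesicles. Rab5a, 1 of 3 paralogs, was at 32.6 CPM (C1), 24.0 (C2) and 56.9 (C4) after vehicle, and at 17.4 (T1), 28.1 (T2) and 21.7 (T3) after TEPP-46. C4 was highest and T1 lowest, and T2 lay above C2, so that the groups overlapped. The edgeR log2 fold change was -0.77 (SE 0.32), unadjusted p = 0.0404 and adjusted p = 0.813, and without C4 it was -0.35. Rab5b had 126, 108 and 93.3 CPM in vehicle and 133, 132 and 104 in TEPP-46, and Rab5c 128, 142 and 148 against 184, 146 and 134. Their log2 fold changes were 0.16 with SE 0.16 and 0.13 with SE 0.15. A test of the difference between the paralogs was not made.

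The other early endosomal members had groups that overlapped. Rab22a, which sends cargo from early to recycling endosomes, had 19.9 CPM in C4, the highest value, and 8.67 in T3, the lowest. Rab4a and Rab4b, of fast recycling, had log2 fold changes of -0.07 and -0.24, with 59.7, 60.3 and 75.5 CPM in vehicle and 62.7, 53.0 and 50.9 in TEPP-46 for Rab4b. Rab20, which acts in the maturation of phagosomes in macrophages, had 0.936, 4.03 and 0.757 CPM in vehicle and 1.16, 1.96 and 2.45 in TEPP-46, on counts of 4 to 23 in a library. It followed the same order of libraries at its ends as Rab7b and Rab32, with C2 highest and C4 lowest, and its log2 fold change was -0.08 with SE 0.65, or 1.1 without C2. Rab31, a relative of Rab22a, had 29.0 CPM (C1), 39.1 (C2) and 17.6 (C4) after vehicle, and 24.6 (T1), 26.3 (T2) and 40.7 (T3) after TEPP-46. T3 was highest, and C1 lay above T2, whereas the microglia and macrophage markers were lower in C1 than in T2. The microglia and macrophage markers were highest in C2 and next highest in T3, and lowest in C4, and their part in the values of Rab20 and Rab31 was not tested. Rab21, of integrin traffic, was between 9.80 and 12.1 CPM.

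**Figure D3:**
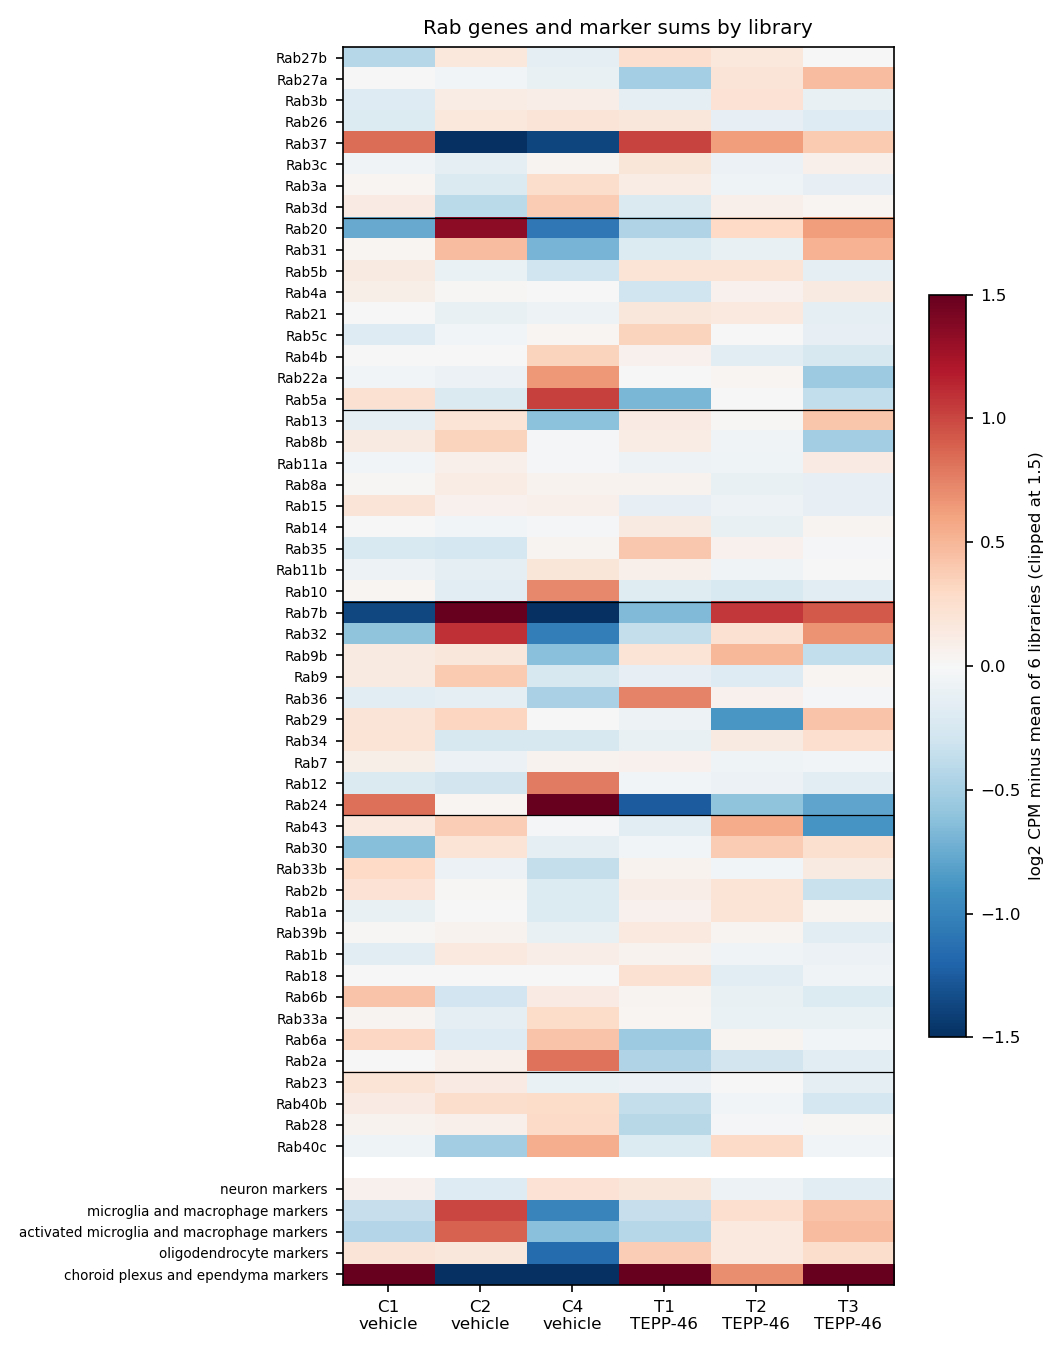
Log2 CPM of the 52 Rab genes in each library (columns) minus the gene's mean over the 6 libraries, in colour clipped at 1.5, with horizontal lines between the compartments (from top: secretory and synaptic, early endosome, recycling, late endosome and lysosome, endoplasmic reticulum and Golgi, cilium and others), and summed marker lists in the bottom 5 rows. Rab7b, Rab32 and Rab20 are red in C2 and blue in C4, as the microglia and macrophage markers are, whereas Rab24, Rab5a, Rab2a, Rab10, Rab12 and Rab22a are red in C4.

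Among the 9 members of recycling and the plasma membrane, Rab15 had the smallest p. RAB15 acts at early and recycling endosomes of neurons. Its gene was at 203 CPM (C1), 185 (C2) and 186 (C4) after vehicle, and at 162 (T1), 168 (T2) and 162 (T3) after TEPP-46. The groups were separate and tight, at 191 ± 9.85 and 164 ± 3.14 CPM (SD, n = 3 each). In edgeR the log2 fold change was -0.23 (SE 0.11), unadjusted p = 0.0556 and adjusted p = 0.851, and it stayed between -0.25 and -0.19 in all alternatives.

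Rab10, of exocytosis and axon growth and a substrate of LRRK2, was at 47.0, 40.7 and 75.9 CPM in the vehicle libraries (C1, C2, C4) and at 40.5, 39.1 and 40.9 in the TEPP-46 libraries (T1, T2, T3). C4 alone was high, and C2 lay below T3. Its edgeR log2 fold change was -0.45 (SE 0.23), at an adjusted p of 0.882, and without C4 it was -0.14. Rab14, of Golgi to endosome traffic, had 244, 237 and 241 CPM against 268, 227 and 251, with a log2 fold change of 0.03 and an SE of 0.11. Rab35, of fast recycling and neurite growth, had 24.9, 24.4 and 30.1 CPM against 38.8, 30.6 and 29.0, with a log2 fold change of 0.30. Rab11a and Rab11b, which define the recycling endosome, had log2 fold changes of -0.02 and 0.01, with SEs of 0.12 and 0.13. Rab8a, of exocytosis and cilia, was between 25.6 and 30.3 CPM, Rab8b between 3.20 and 5.79 and Rab13, of tight junctions, between 3.78 and 7.73.

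The 8 secretory and synaptic members had fold changes on both sides of 0, 4 above and 4 below, and none reached an unadjusted edgeR p under 0.05. Rab3a, the main RAB of synaptic vesicles, was at 2104, 1764 and 2469 CPM in the vehicle libraries (C1, C2, C4) and at 2222, 1971 and 1893 in the TEPP-46 libraries (T1, T2, T3). All TEPP-46 values lay within the vehicle range, and the log2 fold change was -0.07 with SE 0.14. The neuron markers had the same library at the top (7874 CPM in C4) and at the bottom (5917 in C2), and their part in the values of Rab3a was not tested. Rab3c had 214, 200 and 227 CPM against 251, 209 and 234, a log2 fold change of 0.10 with SE 0.12. Rab3b was between 52.4 and 69.9 CPM and Rab3d between 7.02 and 12.1.

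Rab37, of secretory granules, had the highest log2 fold change of the family. It was at 6.18 CPM (C1), 1.23 (C2) and 1.32 (C4) after vehicle, and at 6.97 (T1), 5.34 (T2) and 4.52 (T3) after TEPP-46, on counts of 7 to 42 in a library. C1 lay among the TEPP-46 libraries, and C2 and C4 were far below. The edgeR log2 fold change was 0.94 (SE 0.57), at an adjusted p of 0.936, and it was 2.10 without C1, 0.58 without C2 and 0.61 without C4. The choroid plexus and ependyma markers, of which all 8 were in the table, were low in the same 2 libraries, C2 and C4, and their part in the values of Rab37 was not tested. Rab27a and Rab27b, of granule docking, had log2 fold changes of 0.14 and 0.24, and Rab26, which links synaptic vesicles to autophagy, of -0.12.

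All 4 members grouped under cilium and others had fold changes below 0. Rab40b, which recruits a ubiquitin ligase complex through its SOCS box, was at 31.6, 34.9 and 35.0 CPM in the vehicle libraries (C1, C2, C4) and at 22.6, 28.3 and 24.1 in the TEPP-46 libraries (T1, T2, T3). The groups did not overlap and no library stood apart. The edgeR log2 fold change was -0.45 (SE 0.16), unadjusted p = 0.0223 and adjusted p = 0.723. It ran from -0.55 to -0.38 over all alternatives. Rab28, a RAB of cilia and photoreceptors, had 77.3, 78.8 and 91.0 CPM against 55.6, 73.3 and 75.6. Its groups did not overlap, although T3 lay close to C1, and the log2 fold change was -0.29 with SE 0.16, or -0.16 without T1. Rab23, a regulator of Hedgehog signalling, had a log2 fold change of -0.17, and Rab40c, with 49.2 CPM in C4 and 23.3 in C2, of -0.03.

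Summed over members, each compartment had libraries of the groups that overlapped. The late endosomal and lysosomal members summed to 495 ± 30.4 CPM in vehicle and 458 ± 15.7 in TEPP-46, the early endosomal ones to 483 ± 12.2 and 483 ± 27.7, and the secretory and synaptic ones to 2458 ± 367 and 2395 ± 189 (SD, n = 3 each). The endoplasmic reticulum and Golgi members summed to 1283 ± 111 and 1179 ± 32.5 CPM, the recycling members to 741 ± 28.5 and 713 ± 29.2, and the cilium and other members to 181 ± 18.0 and 155 ± 18.7. These sums are weighted by the members with most counts and were not tested.

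At the isoform level 118 of the 176 rows passed the filter, and each of the 52 genes had at least 1. Of these isoforms 0 were called by edgeR, as for all 33854 tested (0% called), and DESeq2 called 1 as lower (0.449% of all isoforms were) and 0 as higher (0.00295%). At an unadjusted edgeR p under 0.05, 8 were lower (6.78%, against 3.9% of all isoforms) and 0 higher (against 1.88%). DESeq2 also had 8 lower and 0 higher at an unadjusted p under 0.05 (3.17% and 0.591% of all isoforms). A member had up to 8 isoforms with a count, 10 members had 1, and 16 had at least 1 isoform without a reference identifier. Isoform counts are not independent. Pairs within a gene were compared among isoforms with a summed count of at least 60. In 6 of these pairs, from 5 genes, the counts agreed within 5 counts or 5% in every library. In 1 pair, of Rab23, they were identical. The gene count equalled the sum of the isoforms in 51 members. In Rab3c it was higher by 42% to 56% of the gene count, and 1 locus without a gene row, with 4 isoforms, held exactly the missing counts in each library.

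Of the Rab24 isoforms, the largest fold change was that of Rab24-201, which holds the complete coding sequence. It held 149 (C1), 86 (C2) and 275 (C4) counts after vehicle and 22 (T1), 39 (T2) and 38 (T3) after TEPP-46. All vehicle libraries were above all TEPP-46 libraries, C4 most of all. Its edgeR log2 fold change was -2.45 (SE 0.51), unadjusted p = 0.00230 and adjusted p = 0.445. DESeq2 gave an adjusted p of 1.12e-06 and edgeR without C2 gave 0.00417. In the other 9 alternatives the edgeR adjusted p ran from 0.424 without C4 to 0.9998 without T2. The authors' deposited table, whose headers name DESeq2, gives a false discovery rate of 2.41e-06 with a log2 fold change of -1.45. An isoform of Rab24 without a reference identifier had 34, 24 and 79 counts against 17, 23 and 16, a log2 fold change of -1.38 with an edgeR adjusted p of 0.653, or -0.70 without C4. Rab24-203, an annotated transcript whose start is incomplete, had 12, 10 and 21 counts against 13, 14 and 9, a log2 fold change of -0.34 with SE 0.40.

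As shares of the Rab24 counts, Rab24-201 made up 76.4% in C1, 71.7% in C2 and 73.3% in C4, and 42.3% in T1, 51.3% in T2 and 60.3% in T3. The TEPP-46 shares were all below the vehicle shares, but they rest on 52 to 76 counts, so that the exact 95% binomial interval of T1 runs from 28.7% to 56.8% and that of T3 from 47.2% to 72.4%. These intervals cover counting error only. The share of Rab24-203 was between 5.60% and 8.33% in vehicle and between 14.3% in T3 and 25% in T1 with TEPP-46. Isoform usage, the proportions of isoforms apart from the gene's total, was tested with edgeR's diffSpliceDGE in 32 members. It called 0 of them, where it called 0.0131% of 7639 genes, and 0 had an unadjusted p under 0.05 (0.641% of all genes). Rab24 had the smallest p of a member, a Simes p of 0.108 from diffSpliceDGE.

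Rab15 followed with a Simes p of 0.242 from diffSpliceDGE. Rab15-201 had 715, 669 and 661 counts in vehicle and 535, 528 and 511 in TEPP-46, the smallest unadjusted edgeR p of all Rab isoforms (0.00222, adjusted 0.441) with a log2 fold change of -0.46 and an SE of 0.12. The groups did not overlap. A second isoform of Rab15, without a reference identifier, had 367, 371 and 320 counts against 437, 414 and 337, and its groups overlapped, with a log2 fold change of 0.08. Rab15-201 thus made up 66.1%, 63.5% and 67.1% of Rab15 counts in vehicle and 54.7%, 56.0% and 59.3% in TEPP-46. The T3 interval, 56.0% to 62.7%, and the C2 interval, 60.5% to 66.4%, overlapped.

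In Rab6a, the downstream exon shown above was in 66.3% of counts in C1, 67.0% in C2 and 61.6% in C4, and in 40.3% in T1, 56.5% in T2 and 65.3% in T3. T1 was far below the rest, and T3 lay within the vehicle range. The means were 64.9 ± 2.96% and 54.1 ± 12.7% (SD, n = 3 each). A two-sided exact permutation test gave p = 0.2, where 0.1 is the smallest that 3 against 3 allows, and without T1 the difference was -4.04 percentage points in place of -10.9. Rab6a-201 itself had 1382, 1050 and 1380 counts against 522, 1025 and 1060. The isoforms with the upstream exon, Rab6a-202 and Rab6a-203, had 389 and 383 counts in T1 and log2 fold changes of -0.14 and 0.02. The Simes p of Rab6a from diffSpliceDGE was 0.449. Rab2a-201, Rab40b-201 and Rab5a-201, the remaining isoforms among the 6 with the smallest p, held all counts of their genes and had log2 fold changes of -0.66, -0.47 and -0.78, with unadjusted edgeR p of 0.00931, 0.0117 and 0.0346. Without C4 those of Rab2a-201 and Rab5a-201 were both -0.36.

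**Figure D4:**
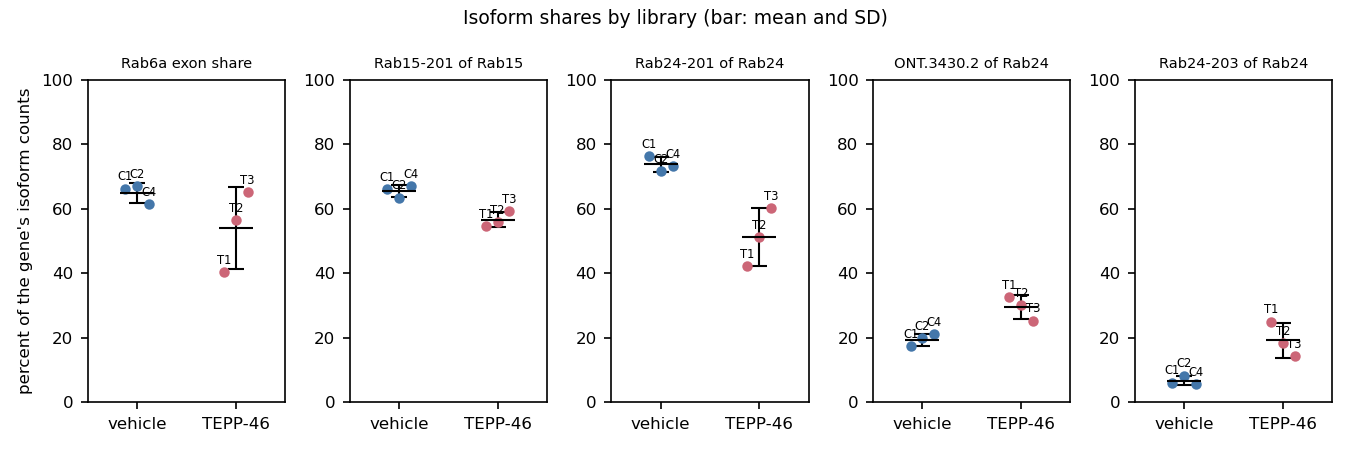
Percent of a gene's isoform counts held by the isoforms with the downstream exon of Rab6a, by Rab15-201, and by 3 isoforms of Rab24 (ONT.3430.2 has no reference identifier), in each library (points, labelled by column) with the mean and SD of each group (bars, n = 3). The TEPP-46 libraries lie below vehicle for Rab15-201 and Rab24-201, and T3 lies within the vehicle range for Rab6a.

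Rab24 and Rab5a were 2 of the 16 members that were highest in C4. Their promoters were searched for the longest run of bases they share on either strand. The pair was chosen after its values were seen. Promoters were those of RefSeq on GRCm38.p6, from 250 bases before to 50 after the start. The longest shared run was 10 bases, and of the 2 runs of that length 1 reads the same on both strands, GTCACGTGAC. It contains the E-box CACGTG and is known as a CLEAR element, a sequence bound by TFEB family factors at genes of lysosomes and autophagy. Rab24 and Rab5a carry it by the way it was chosen, so that the search adds a single member. With them, it was found in 3 of the 43 members with a promoter in the table (6.98%), and in 0.370% of 27025 genes, and nothing is read from the difference of these shares. The shorter CACGTG, which lies within the chosen run, was in 6 of the 43 (14.0%) and in 8.09% of genes. Those 6 were Rab20, Rab21, Rab23, Rab24, Rab27a and Rab5a. Rab12, Rab2a, Rab10 and Rab22a, whose highest library was also C4, were not among those 6. Whether each of them had a promoter to search is not given here. Rab24 and Rab5a are among the 6 by the same choice, and nothing is read from these shares either. The 3 matches are shown with 10 bases on each side and the motif in capitals, at chr13:55321961-55321990 (minus strand), chr17:53479127-53479156 (plus strand) and chr10:115315604-115315633 (minus strand).
Rab24: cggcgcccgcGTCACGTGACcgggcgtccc
Rab5a: acccggggatGTCACGTGACttcggccccg
Rab21: gcccaccgcgGTCACGTGACgaggggtgtg
By the RefSeq starts, the motif begins at the start itself in Rab24, and 97 bases before it in Rab5a and 32 in Rab21. The GENCODE gene model of Rab24 starts further downstream, at 55321946 on the minus strand, so that the motif lies outside that model. Rab21, with the same motif, was highest in T1, at 12.1 CPM, and lowest in T3, at 9.80, with a log2 fold change of 0.11 with SE 0.21. A match describes the letters of the window and says nothing of binding.

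Genes that run the Rab cycle were counted from 4 lists, with 132 genes in the table and 114 tested. edgeR called 0 of them and DESeq2 0. At an unadjusted p under 0.05, DESeq2 had 5, and in edgeR 2 were higher and 4 lower, close to the shares of all genes given above, and the median log2 fold change was 0.03. Of the 8 genes of GDI, escort and prenylation, 1 was lower at that p in edgeR (4.05% of all genes were). This was Chml, an escort protein for newly made RABs, with 5.62, 4.56 and 3.59 CPM in vehicle and 2.49, 0.711 and 1.13 in TEPP-46, for which edgeR gave a log2 fold change of -1.65 (SE 0.46, adjusted p 0.559.) All TEPP-46 libraries were below all vehicle libraries, at low counts. Gdi2, the widely expressed GDI, was at 216 ± 5.45 and 221 ± 3.63 CPM, Rabggta, a subunit of geranylgeranyl transferase, at 98.4 ± 19.7 and 116 ± 21.0, and Rabggtb, the other subunit, at 224 ± 30.7 and 229 ± 24.8 (vehicle and TEPP-46, SD, n = 3 each).

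Of 31 exchange factors, 2 were lower at an unadjusted edgeR p under 0.05 and 0 higher. Of all genes tested, 4.05% were lower and 1.88% higher, and nothing is read from so short a list. Rab3ip, or Rabin8, the exchange factor of RAB8, had 32.6, 27.0 and 39.9 CPM in vehicle and 7.80, 16.5 and 20.5 in TEPP-46. The groups did not overlap, and the edgeR log2 fold change was -1.16 (SE 0.32), at an adjusted p of 0.559. Ccz1, which activates RAB7 together with MON1, was at 9.28 ± 2.33 CPM with vehicle against 5.25 ± 1.16 with TEPP-46 (SD, n = 3 each), for a log2 fold change of -0.83, and its unadjusted edgeR p was above 0.05 without C4 (0.0720) or T2 (0.0698). Their targets Rab8a and Rab7 had log2 fold changes of -0.13 and -0.05. Dennd5a and Madd, the exchange factor of RAB3, had 105 ± 23.6 and 103 ± 1.93 CPM in vehicle and 129 ± 18.8 and 112 ± 22.5 in TEPP-46 (SD, n = 3 each).

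Of 33 GTPase-activating proteins, 1 was higher at that edgeR p and 0 lower (1.88% and 4.05% of all genes). Tbc1d8 had 13.5, 18.2 and 12.3 CPM in vehicle and 20.6, 32.4 and 18.8 in TEPP-46, with T3 just above C2, a log2 fold change of 0.69 and an edgeR adjusted p of 0.765. Without T2 it was 0.41, with an unadjusted edgeR p of 0.144. Tbc1d10b, which acts on RAB35 among others, was at 10.8 ± 1.87 and 15.0 ± 1.35 CPM, Tbc1d14, of autophagy, at 139 ± 13.7 and 133 ± 9.5, and Rab3gap1, a catalytic subunit of the RAB3 GAP, at 112 ± 7.99 and 116 ± 1.92 (vehicle and TEPP-46, SD, n = 3 each). Of 42 effectors, 1 was higher and 1 lower at that p in edgeR (1.88% and 4.05% of all genes). Doc2a, a calcium sensor of vesicle release, had 36.3, 23.3 and 45.6 CPM in vehicle and 17.8, 19.9 and 24.1 in TEPP-46, with T3 above C2, a log2 fold change of -0.78 and an edgeR adjusted p of 0.657. Rims3, of the presynaptic active zone, had 33.5, 36.0 and 43.3 CPM against 66.9, 40.0 and 50.7, with T1 far above the rest, and its log2 fold change of 0.47 was 0.26 without T1. Rph3a, the RAB3 effector rabphilin, was at 348 ± 86.2 and 411 ± 70.6 CPM, and Osbpl1a, the RAB7 effector ORP1, at 424 ± 118 and 380 ± 32.6, both with groups that overlapped.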

How the data were processed

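Perihematomal brain of 3 TEPP-46 and 3 vehicle samples was sequenced by nanopore from amplified cDNA of total RNA, per the labels' protocols. The authors deposited raw counts per gene and isoform in 2 tables, per the file headers, with their own p-values, false discovery rates and log2 fold changes, which are quoted only by name. GRCm38 and DESeq 1.10.1 appear in the submitters' processing notes. For the aligner, the counter and the use of strand, nothing is given in the sources used here. Another 12 columns of per-library values stayed unused.

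Genes and isoforms were tested over the whole tables with edgeR 4.0.16 in R 4.3.3 (filterByExpr, TMM, robust quasi-likelihood F test, group as the single term, Benjamini-Hochberg adjustment, threshold 0.05), and usage with diffSpliceDGE. Standard errors were derived from the F statistic. CPM was computed from counts and library totals of 5286426 to 6025064. The test was checked on simulated data. For genes it recovered 8% of 1.5-fold, 28% of 2-fold, 78% of 4-fold and 100% of 8-fold changes, with 7% of calls false. For isoforms these were 2%, 32%, 82% and 100%, with 9.2% of calls false. The simulated data gave 115 gene calls and 119 isoform calls, where edgeR gave 0 of each in the real data. The rates therefore describe the simulated data and are not the power of the comparison reported here. Alternatives were RLE scaling, library totals, other filters, DESeq2 1.42.0 and leaving out each library. Gene models were GENCODE M21 and promoters RefSeq, both GRCm38.

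The members, the compartment groups and the lists were chosen with earlier results of these data known. Text names the 10 members with the smallest p, the 6 with the highest CPM, the 6 with the largest SD over libraries, the 6 isoforms and 3 usage tests with the smallest p, and per list the 2 genes with the smallest p and the 2 with the highest CPM. Other members are given by group. Protein sequences were not used here.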

Additional observations from a re-analysis of the deposited data

How the results depend on the processing

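The count of Rab genes called was 0 under RLE scaling, library totals and both other filters, 1 with DESeq2, and 0 to 1 when each library was left out. The count of isoforms called was likewise 0 in those 4 settings, 1 with DESeq2 and 0 to 1 with a library left out. Members at an unadjusted p under 0.05 were 4, and 1 to 8 with a library left out (8 without C2, 2 without C4, 1 without T1), while isoforms were 8, and 5 with a mean count of at least 50 and 4 to 10 with a library left out. Cycle genes at that p were 6, and 3 with a mean count of at least 50 and 5 to 12 with a library left out (12 without C1, 12 without C2, 10 without T3). Without C1, 8 cycle genes were higher and 4 lower, and without C2, 3 were higher and 9 lower. Members higher at that p were 2 without C2, 1 without C1 and 1 without T3. The shares of all genes in these settings are not given here, so nothing about the members is read from these counts. The members' median log2 fold change was -0.04, and -0.083 to -0.033 with a library left out. The Rab6a exon difference ran from -16.5 to -4.04 percentage points.

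Of 433 alternatives for 40 named genes and isoforms, 415 kept the direction and the call, 4 newly passed the threshold (Rab24 and Rab24-201, with DESeq2 at -1.94 and -2.45 and without C2 at -2.25 and -2.79), and 14 turned the sign. All 14 left out a library. Over the libraries left out, the log2 fold change ran from -0.18 to 0.058 for Rab3a, from -0.021 to 0.093 for Rab14, from -0.24 to 2.07 for Rab7b, from -0.28 to 1.02 for Rab32, from -0.46 to 1.1 for Rab20, from -0.079 to 0.10 for Rabggtb, from -0.024 to 0.26 for Madd and from -0.34 to 0.060 for Osbpl1a. The cause was not tested. No paired analysis was possible because the numbers in the column headings are not those of the samples. With 3 libraries in a group, an unadjusted p that misses 0.05 does not show that a member did not differ.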
